A study of Mus musculus with 24 samples.

Results

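Glis3 KO kidney was compared with wild-type (WT) kidney at postnatal day 28 (PND28), using the 8 mouse whole-kidney RNA-seq libraries that carry that age in the labels. They are 4 libraries labelled Glis3 KO and 4 labelled WT, chosen by their columns in the count table for that age, and they make up 8 of the 24 samples of the series, of which 23 had a count column. The series follows kidney RNA of both genotypes at PND7, PND14 and PND28 and asks how GLIS3 acts in the kidney after birth. The design text calls the mutant mice Glis3-null. The labels give no allele, promoter, strain or sex, and they do not say whether each library came from a separate animal. The p-values thus measure only the spread between these samples, part of which may be technical. Both groups held libraries with and without Y-linked reads, so each group came from more than 1 animal. No treatment is named for any group.

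GLIS3 is a Kruppel-like zinc finger transcription factor that is found in the nucleus and in the primary cilium, and its loss in people and mice is known to cause polycystic kidneys and neonatal diabetes. In a cystic kidney the tubules widen into fluid-filled sacs, and the late stages are known for loss of differentiated tubule cells, inflammation and scarring of the tissue between the tubules. The proximal tubule reclaims most of the filtered load and burns fatty acids to do so, while the thick ascending limb, distal tubule and collecting duct set the final salt and water balance.

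In whole-kidney RNA, fewer cells of a type and less RNA per cell cannot be told apart. Levels are given as CPM, counts per 1000000 counts of the library after scaling by TMM factors (trimmed mean of M-values), in the order of libraries 1 to 4 of each group. Because CPM is not divided by transcript length, levels were compared between libraries and not between genes. Changes are log2 fold changes of KO over WT with their standard errors (SE) from the quasi-likelihood test of edgeR, and a gene was called, or said to rise or fall, where its p, adjusted by Benjamini-Hochberg over every gene in the fit, was under 0.05.

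Total counts ran from 37798686 to 45858607 in the 4 WT libraries and from 44811435 to 59831982 in the 4 libraries labelled KO. The first principal component carried 82.5% of the variance and separated the genotypes. Glis3 itself, at chr19:28258851-28680077 (mm10, minus strand), was not lower in the libraries labelled KO: it stood at 119.7, 125, 131 and 119 CPM there and at 91.1, 89.2, 75.4 and 74.3 CPM in WT. Those counts cover the whole gene, and whether they cover the deleted part is not known, so they do not check the labels. KO below means a library labelled KO. Y-linked reads were found in KO libraries 1, 2 and 3 and in WT libraries 2 and 3, and were near 0 in KO library 4 and in WT libraries 1 and 4. The TMM factors also separated the genotypes, at 1.12 to 1.18 in KO and 0.84 to 0.89 in WT. Scaled by library totals alone, the median gene moved from a log2 fold change of -0.003 to 0.40, so every change given here is relative to the median gene. Of the 35 kidney lists described here, the medians of 2, the cystic disease and the tubule transcription factor lists, changed sign under that scaling. As a check of the tissue label, Umod, whose product is made only in kidney, was at 2791 to 3296 CPM in WT and at 810.2 to 1335 CPM in KO, and the pancreatic Pnlip had no count in any library.

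WT replicate 4 stood apart from the other libraries by its adrenal genes. Hsd3b1, a steroid dehydrogenase of adrenal cortex, was measured at 0.907, 1.24, 2.25 and 101 CPM in WT and at 0.0899, 0.239, 0.225 and 0.0974 CPM in KO. Star, the cholesterol carrier of steroid-making cells, was measured at 5.72, 6.18, 6.77 and 83.3 CPM in WT and at 4.17, 5.16, 4.59 and 4.99 CPM in KO. Cyp11b1, Cyp11a1 and Cyp21a1, which make corticosteroids, followed the same pattern, with 27.5 to 31.6 CPM in WT replicate 4 and at most 1.06 CPM in every other library. Summed over the 12 adrenal cortex genes of the list, the level was 334 CPM in WT replicate 4, 33.8 to 40.3 CPM in WT replicates 1 to 3 and 40.6 to 58.9 CPM in KO. The medulla genes Th, Dbh, Pnmt, Chga and Chgb, which make or package catecholamines, ran from 0.45 to 4.69 CPM in WT replicate 4 and were at or under 0.26 CPM in the other 7 libraries. Chgb was chosen after its values were seen. Of the 9 adrenal cortex genes tested 7 fell and 1 rose, and without WT replicate 4, 6 fell and 2 rose with a median of -0.94 in place of -2.43. Of the 10 medulla genes 3 passed the low-count filter, and their summed level of 231 to 265 CPM in WT and 42.6 to 53.7 CPM in KO came almost wholly from the amine transporter gene Slc18a1, at 217 to 259.7 CPM in WT, with no excess in WT replicate 4.

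**Figure D1:**
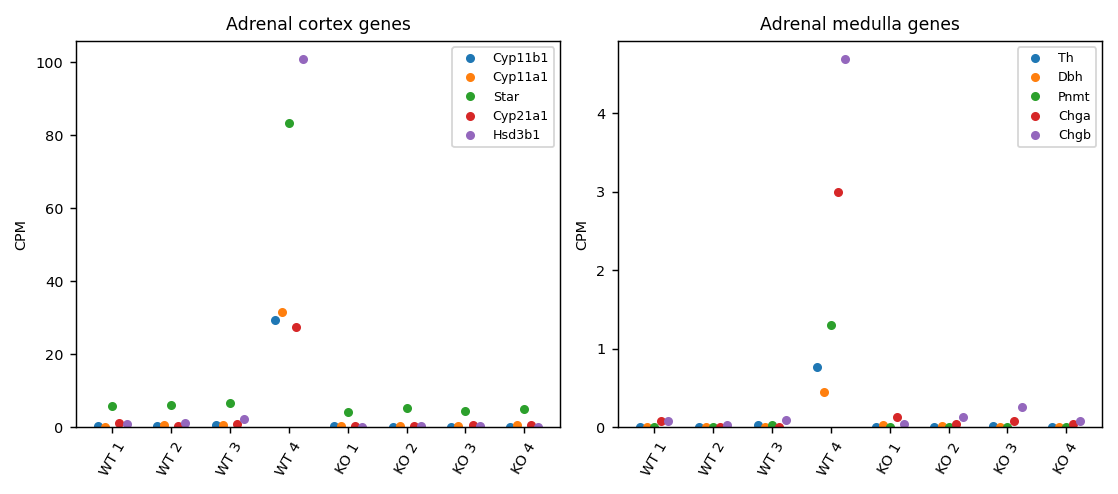
Level of 5 adrenal cortex genes (left) and 5 adrenal medulla genes (right) in each PND28 library. Each point is 1 library, in CPM on a linear axis, and the points of 1 library are spread sideways so that they can be seen. WT replicate 4 is high for all 10 genes, with 101 CPM of Hsd3b1, and the other 7 libraries lie near 0 except for Star at 4.17 to 6.77 CPM.

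With all 8 libraries, 11044 of 16797 genes tested were called, which is 65.7%. Genes called higher made up 32.9% and genes called lower 32.8%, and the groups did not overlap for 60.4%. With library totals in place of TMM, a scaling chosen after seeing the data, 56.7% were called higher and 16.6% lower. Against a background this broad a count of called genes in a list says little by itself, and each list is read by how far its higher and lower shares lie from those figures. Without WT replicate 4, 10590 of 17088 genes were called, which is 62.0%. Of the genes called with all libraries, 10264 (92.9%) were called in the same direction without it. The 35 kidney lists held 748 genes that passed the low-count filter, of 780 in the table, and 613 of these were called. Of the 613, 600 (97.9%) were called in the same direction without WT replicate 4. The other 13, named because they lost the call, were Cyp24a1, Nos3, Rgs4, Sdccag8, Ccna2, Cd79a, Ccl3, Ccl5, Tslp, Hp, Gbp2, Gbp3 and S100a4. For some of these the log2 fold change stayed about as large: it was 1.56 with and 1.59 without that library for Hp, -0.65 and -0.70 for Ccna2, 0.81 and 0.81 for S100a4, and -0.89 and -0.84 for Gbp3. For others it was smaller, -1.04 and -0.55 for Cd79a.

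**Figure D2:**
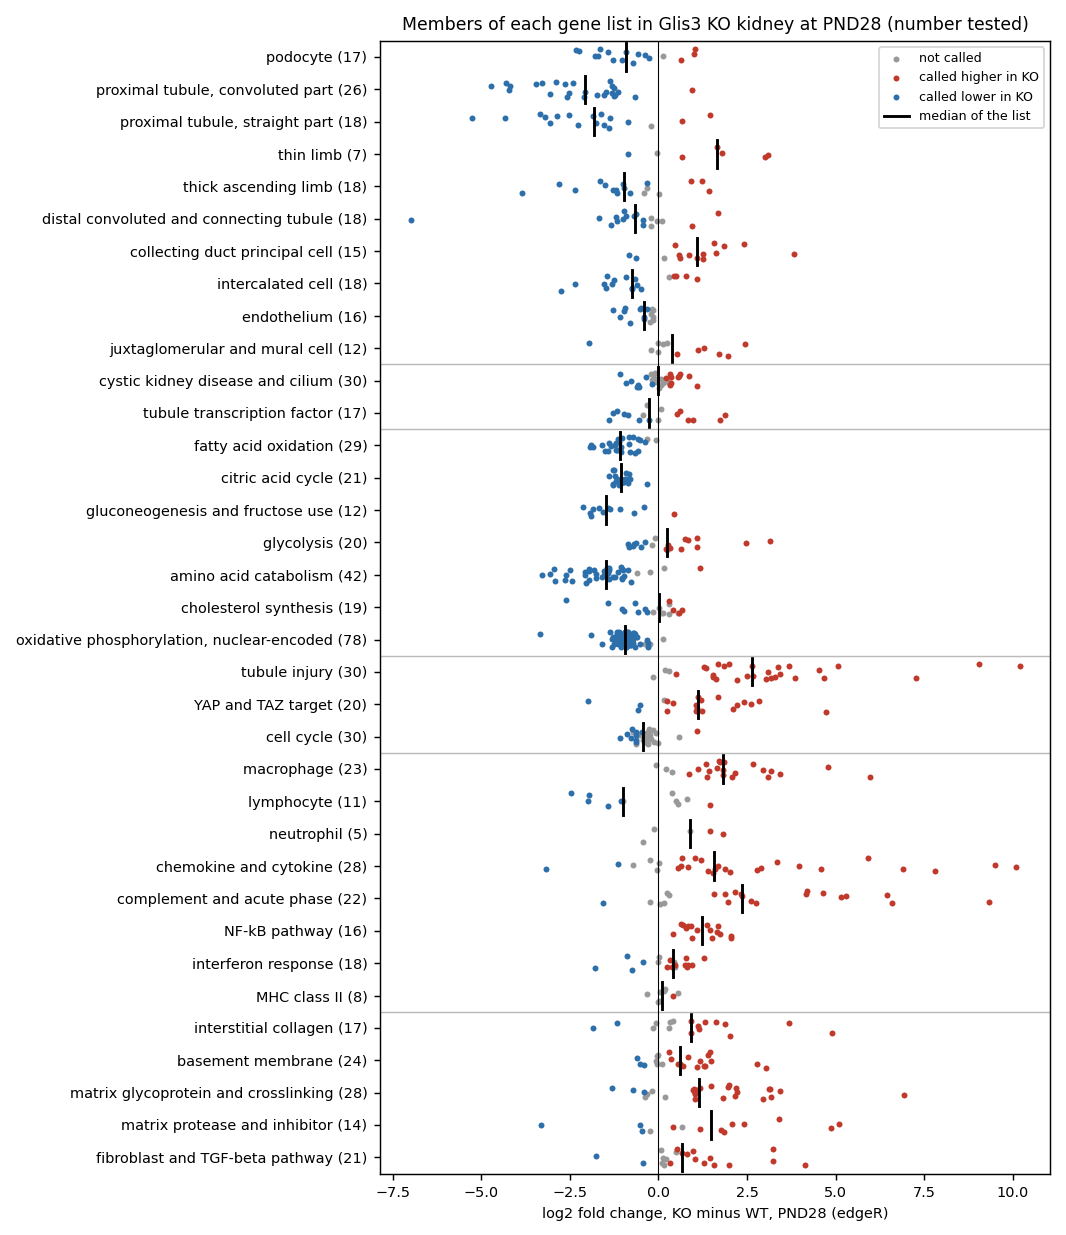
Log2 fold change of KO over WT at PND28 for every tested member of the 35 kidney lists. Each point is 1 gene, red where called higher, blue where called lower and grey where not called, and black bars mark the list medians. The medians of the proximal tubule lists and of most metabolism lists lie left of 0, those of glycolysis and cholesterol synthesis are 0.24 and 0.01, and those of the injury, macrophage, chemokine and NF-kB lists lie right of 0.

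**Figure D3:**
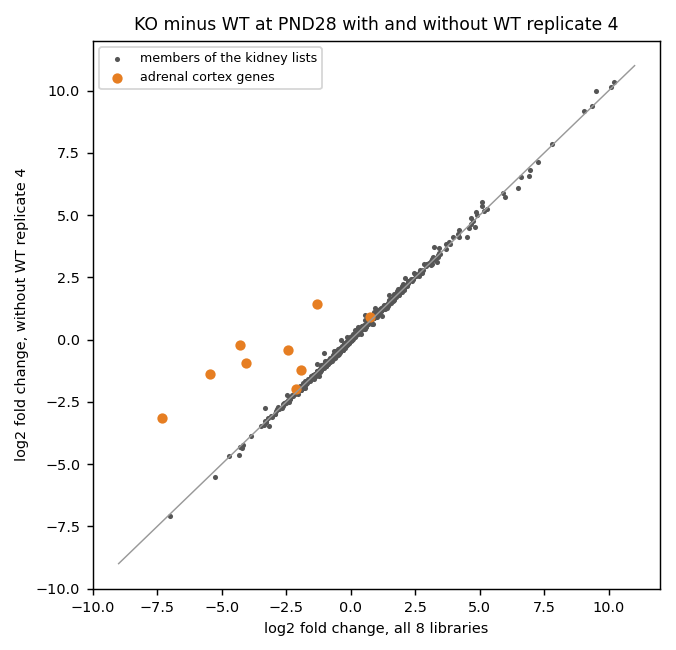
Log2 fold change of each list member with all 8 libraries (x axis) and without WT replicate 4 (y axis), with the line of equal values. Members of the kidney lists lie along the line, while adrenal cortex genes such as Cyp11a1 move from -4.30 to -0.23.

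The proximal tubule had the lowest medians of the segment lists. Of the 26 tested genes of its convoluted part, 25 fell and 1, whose call depended on the fit, rose, with a median log2 fold change of -2.08, and of the 18 tested genes of its straight part 15 fell and 2 rose, with a median of -1.81. Miox, which opens the inositol ring and is made almost only in this segment, was measured at 1799.8, 1601, 1544 and 1879 CPM in WT and at 81.6, 74.2, 26.3 and 76.2 CPM in KO. All 4 KO libraries were far under all 4 WT libraries, a fall of 4.72 ± 0.32 on the log2 scale (adjusted p = 3.47e-07). Gatm, which makes the creatine precursor, was chosen after its values were seen and stood at 2884, 2674, 2580.1 and 2653 CPM in WT and at 170.1, 170.4, 87.5 and 122 CPM in KO. Cubn, the partner of megalin in protein uptake, fell by 2.09 ± 0.23, from 245 to 375 CPM to 49.2 to 97.4 CPM. The exception in the convoluted part was Cyp27b1, which activates vitamin D. It was measured at 9.87, 8.43, 14.9 and 22.01 CPM in WT and at 23.5, 44.8, 26.6 and 11.6 CPM in KO, so that the groups overlapped, and its log2 fold change of 0.95 had an adjusted p of 0.0457. With Y-linked reads as a covariate that value was 0.80 with an adjusted p of 0.139, and DESeq2 did not call it (adjusted p = 0.083), so that no gene of the convoluted part rose in either fit. The call was also lost on leaving out any 1 of KO replicates 1 to 3 or WT replicates 1 to 3, at adjusted p-values of 0.0523 to 0.145.

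Among genes of the straight part, the cystine transporter subunit Slc7a9 fell from 207 to 262 CPM to 52.2 to 76.5 CPM. The organic anion transporter Slc22a7 was at 53.97, 7.94, 5.36 and 9.22 CPM in WT and at 0.584, 0.298, 0.347 and 0.779 CPM in KO. The amino acid transporter Slc7a13 was at 23.2, 326, 243 and 59.2 CPM in WT and at 9.005, 10.01, 4.402 and 8.55 CPM in KO. WT libraries thus differed among themselves for these transporters. Slc7a13 was high in the WT libraries with Y-linked reads and low in those without, and Slc22a7 was highest in WT replicate 1, which had none. Slc22a7 had a log2 fold change of -5.27 and Slc7a13 of -4.35, and with Y-linked reads as a covariate these were -4.47 and -4.197. Cyp7b1, an oxysterol hydroxylase, and Agt, the precursor of angiotensin, rose, by 1.46 ± 0.19 and 0.67 ± 0.06.

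Most podocyte genes fell as well. Of 17 tested podocyte genes 13 fell and 3 rose, with a median log2 fold change of -0.91, and with library totals in place of TMM 8 fell and 4 rose, with a median of -0.51. Nphs1, which encodes nephrin of the slit diaphragm, was measured at 38.4, 32.5, 35.1 and 34.6 CPM in WT and at 9.12, 6.85, 5.55 and 8.07 CPM in KO, a fall of 2.25 ± 0.14 with no overlap, while Wt1, the podocyte transcription factor, fell by only 0.57 ± 0.10. Cd2ap and Kirrel, adaptor and adhesion proteins of the slit that are not confined to podocytes, rose by 1.04 ± 0.07 and 1.004 ± 0.13. Of 16 endothelial genes 10 fell and none rose, with a median of -0.41. Kdr, the main VEGF receptor, was at 95.9, 79.8, 79.1 and 86.03 CPM in WT and at 38.4, 33.95, 30.4 and 37.6 CPM in KO, whereas the pan-endothelial Pecam1 and Cdh5 were not called, at log2 fold changes of -0.20 and -0.23 that were positive with library totals. With library totals in place of TMM, 5 endothelial genes fell, 1 rose and the median was -0.01.

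In the loop and distal nephron the direction differed by gene. Of 18 tested genes of the thick ascending limb 12 fell and 3 rose, with a median of -0.98. Umod, which encodes uromodulin, was at 2791, 2918, 2976 and 3296 CPM in WT and at 810.2, 1135, 964 and 1335 CPM in KO. Egf, the growth factor made in this limb and the distal convoluted tubule, was at 1789.9, 1715, 1926 and 1836 CPM in WT and at 142, 179, 75.5 and 101 CPM in KO, a fall of 3.87 ± 0.24 (adjusted p = 1.99e-07). The 2 groups were far apart for both genes. Against these, the tight junction gene Cldn19 and the transcription factor gene Foxq1 rose by 1.23 ± 0.11 and 1.42 ± 0.20.

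Of 18 genes of the distal convoluted and connecting tubule 12 fell and 2 rose, with a median of -0.67, and with library totals 10 fell and 4 rose, with a median of -0.27. Pvalb, the calcium-binding parvalbumin of the early distal convoluted tubule, was measured at 29.9, 36.9, 36.4 and 28.05 CPM in WT and at 0.345, 0.343, 0.139 and 0.156 CPM in KO. It fell by 7.004 ± 0.23 on the log2 scale, while Slc12a3, the thiazide-sensitive cotransporter of the same segment, fell by 1.68 ± 0.14. Calb1, calbindin, ranged from 279 to 811 CPM in KO and from 1091 to 1260.3 CPM in WT. Trpv5, the apical calcium channel of the same cells, went the other way: it was at 42.97, 39.95, 44.5 and 36.5 CPM in WT and at 132, 119, 136 and 136 CPM in KO, with no overlap and an adjusted p of 4.6e-08. Trpm6, the magnesium channel, was not called.

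Most principal cell genes of the collecting duct rose. Of 15 tested genes 12 rose and 2 fell, with a median log2 fold change of 1.09. Elf5, a transcription factor of these cells, was measured at 1.99, 2.58, 3.87 and 3.52 CPM in WT and at 45.8, 37.8, 41.7 and 43.1 CPM in KO. Gata3, another factor of the duct that was chosen after its values were seen, was at 11.7, 12.4, 12.7 and 13.4 CPM in WT and at 77.1, 67.2, 58.96 and 62.7 CPM in KO. Scnn1b, a subunit of the epithelial sodium channel, was at 51.3, 56.9, 54.3 and 49.5 CPM in WT and at 153, 158, 167 and 152 CPM in KO. The KO libraries lay within a narrow range for these 3 genes and apart from WT. Aqp3, the basolateral water channel, ranged from 182 to 353 CPM in KO against 107 to 146 CPM in WT. Ptges, a prostaglandin E synthase, and Kcne1, a potassium channel subunit, fell, by 0.85 ± 0.12 and 0.64 ± 0.12.

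Promoters of the list genes were searched for short motifs in the RefSeq promoter table for mouse (build GRCm38.p6, which is mm10), which holds 250 bases before to 50 bases after each start. Of 780 list genes 578 had an entry, with 691 promoters among the 32851 of the table. The letters searched on both strands included TGGGGGGT for GLIS factors, CAAAGTCCA for HNF4, GGAATTTCC for NF-kB and TGAGTCA for AP-1, none of these 4 strings contains another, and any other motif searched is not reported here. The GLIS-type letters were in 1.53% of all promoters, in 4 of the 28 promoters of chemokine and cytokine genes (14.3%) and in 2 of the 12 promoters of principal cell genes (16.7%), those of Elf5 and Ptges. These were the highest shares. Some lists had 1 match, such as 1 of 21 distal convoluted and connecting tubule promoters (4.76%). There was none in 30 convoluted and 12 straight proximal tubule, 18 thick ascending limb, 26 cystic disease and cilium, and 32 injury promoters. Elf5 and Ptges are shown with the match in capitals, on the strand of the gene, because the 2 genes moved in opposite directions.
Elf5: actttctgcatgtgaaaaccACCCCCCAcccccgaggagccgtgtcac
Ptges: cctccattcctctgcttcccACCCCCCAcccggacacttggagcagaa

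The windows lie at chr2:103423952-103423999 on the plus strand for Elf5 and at chr2:30903405-30903452 on the minus strand for Ptges, and in both the capitals are the reverse complement of the letters searched. A match describes the letters of the promoter. Binding was not measured in these samples.

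Intercalated cell genes, which handle acid and base in the same duct, moved the other way in most cases: 13 of 18 fell and 4 rose, with a median of -0.74. With library totals in place of TMM 10 fell and 5 rose, with a median of -0.34. Slc26a4, which encodes the chloride and bicarbonate exchanger pendrin of type B cells, was at 113, 116, 102 and 94.3 CPM in WT and at 18.1, 28.9, 11.2 and 25.5 CPM in KO. Slc4a1, the exchanger of type A cells that red cells also carry, ranged from 61.2 to 73.6 CPM in WT and from 14.2 to 39.1 CPM in KO. The ammonia channel Rhcg rose, from 146 to 163 CPM to 275 to 389 CPM, and Foxi1, the transcription factor that specifies these cells, was not called at 0.30 ± 0.13. In the thin limb list 5 of 7 genes rose and 1 fell. Slc4a11, a membrane transporter of this limb, fell from 14.9 to 23.8 CPM to 9.705 to 13.2 CPM.

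**Figure D4:**
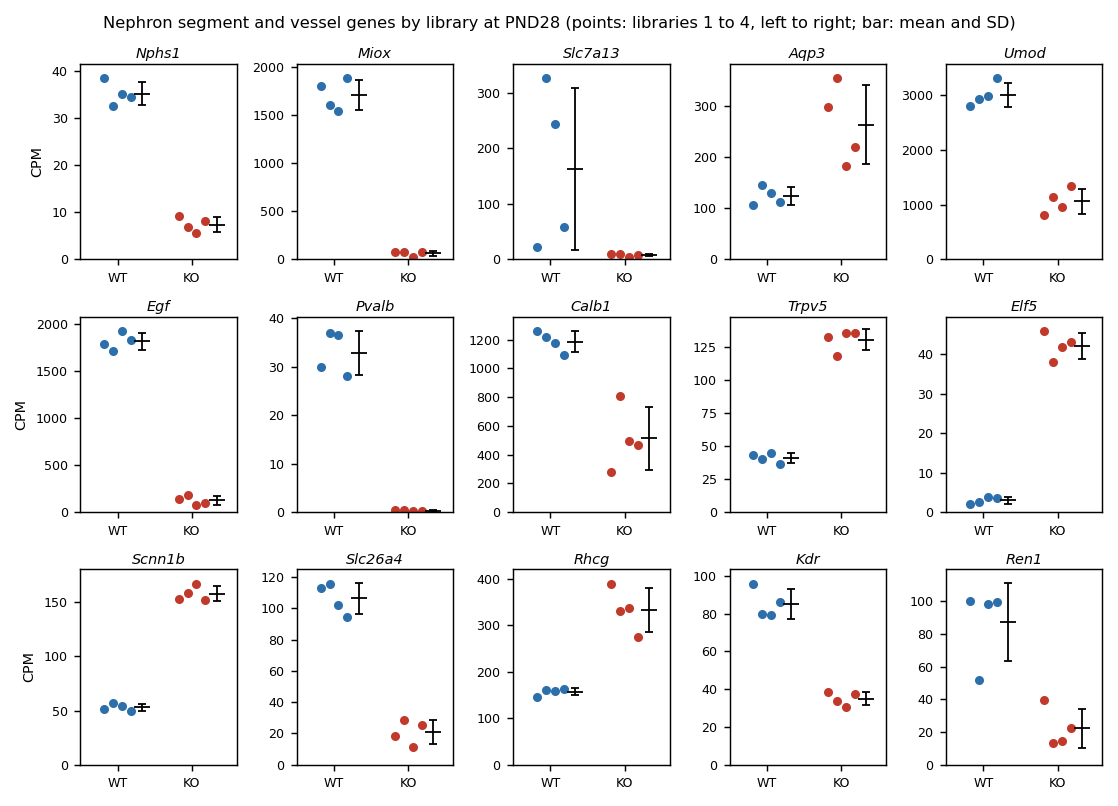
Level in CPM of 15 genes of the nephron segments and vessels in the 4 WT (blue) and 4 KO (red) libraries at PND28, each on its own linear axis from 0, with the mean and SD in black. Nphs1, Miox, Egf, Pvalb and Slc26a4 are low in all KO libraries, Elf5, Scnn1b, Trpv5 and Rhcg are high, and Slc7a13 varies widely among WT libraries.

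Around the vessels, Ren1, which encodes renin, was at 99.9, 51.6, 98.3 and 99.7 CPM in WT and at 39.3, 13.1, 14.7 and 22.4 CPM in KO, a fall of 1.96 ± 0.33. Some mouse strains carry a near-identical copy of Ren1, so its count is uncertain. Of the 12 genes of juxtaglomerular and mural cells 6 rose and Ren1 was the 1 that fell, with a median of 0.38. With library totals in place of TMM 9 rose and 1 fell, with a median of 0.78. Acta2, the smooth muscle actin of arterial muscle and of myofibroblasts, was at 40.95, 25.6, 34.3 and 45.6 CPM in WT and at 129.6, 87.6, 132 and 223 CPM in KO. The pericyte receptor Pdgfrb and the muscle myosin Myh11 were not called, at log2 fold changes of 0.12 and 0.23.

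Of 30 tested genes of cystic disease and of the cilium 10 rose (33.3%), 8 fell (26.7%) and 12 were not called, with a median of -0.03 against -0.003 for all genes. These shares lie near the 32.9% and 32.8% of all genes, so the counts do not set the list apart. Pkd1, whose human counterpart is mutated in most dominant polycystic disease, was at 57.3, 42.01, 47.8 and 53.5 CPM in WT and at 55.5, 49.96, 41.9 and 38.2 CPM in KO, and was not called. Pkd2, its channel partner, fell by 0.92 ± 0.10 with no overlap. Glis2, a relative of Glis3 and a nephronophthisis gene, was at 252, 213, 206 and 284 CPM in WT and at 121, 108, 109 and 108 CPM in KO, a fall of 1.101 ± 0.10 (adjusted p = 3.95e-06). Bicc1, an RNA-binding protein of cystic disease chosen after its values were seen, rose by 1.09 ± 0.09. Pkhd1, the gene of recessive disease, was not called at -0.20 ± 0.16.

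Among 17 transcription factors of the tubule 6 rose (35.3%) and 7 fell (41.2%), shares that also lie near those of all genes. Glis1, the third member of the GLIS family, fell by 0.96 ± 0.15 from a low level. Grhl2, a factor of tight epithelia such as the collecting duct, was at 13.7, 14.2, 13.9 and 13.4 CPM in WT and at 44.5, 48.9, 46.2 and 44.7 CPM in KO. Hoxd3 rose by 1.88 ± 0.23. With library totals in place of TMM the median of these factors turned from -0.28 to 0.13 and that of the cystic genes from -0.03 to 0.38, which was 0.04 with upper-quartile factors and 0.03 without KO replicate 2. Under library totals 20 of the cystic genes rose and 4 fell, and 8 of the transcription factors rose and 5 fell.

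Most metabolic genes fell. Of 29 genes of fatty acid oxidation 27 fell and none rose (median -1.09), all 21 genes of the citric acid cycle fell (median -1.05), and of 78 nuclear genes of oxidative phosphorylation 74 fell and none rose (median -0.94). With library totals in place of TMM 22 genes of fatty acid oxidation fell and 1 rose (median -0.69). By that scaling 20 of the citric acid cycle fell (median -0.65), and 70 of oxidative phosphorylation fell and 1 rose (median -0.535). Acadm, the medium-chain dehydrogenase, was at 1175, 976, 888 and 834 CPM in WT and at 325, 378, 281 and 296 CPM in KO. Sucla2, of succinyl-CoA synthetase, was at 433, 461, 423 and 412 CPM in WT and at 159.6, 178, 148 and 172 CPM in KO. Atp5b, the catalytic subunit of ATP synthase, was at 3864, 3990.2, 3653 and 3645 CPM in WT and at 1918, 2209.7, 1779 and 2016 CPM in KO. No KO library reached a WT library for any of these genes. On the log2 scale Acadm fell by 1.597 ± 0.13, Sucla2 fell by 1.396 ± 0.08 and Atp5b fell by 0.94 ± 0.09. Changes were smaller for Cpt1a, the carnitine transferase that admits fatty acids to mitochondria, which fell by 0.58 ± 0.13, and for citrate synthase, Cs, which fell by 0.34 ± 0.07, which turned to a value of 0.06 with library totals.

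Glucose and amino acid metabolism held larger changes. Fbp1, a rate-setting enzyme of gluconeogenesis, was at 1278, 1417, 1343 and 1233 CPM in WT and at 359, 332, 236 and 264 CPM in KO, and 11 of the 12 genes of gluconeogenesis and fructose use fell. The 1 that rose was Pck2, the mitochondrial form of the carboxykinase, by 0.45 ± 0.09, while the cytosolic Pck1 ranged from 1171 to 2533 CPM in KO and from 2329.6 to 3047 CPM in WT, with overlap. Of 42 genes of amino acid catabolism 38 fell and 1 rose, with a median of -1.48. Acmsd, which steers tryptophan breakdown away from NAD, was at 247, 182, 164 and 177 CPM in WT and at 28.1, 21.8, 10.9 and 18.4 CPM in KO. Agxt2, which breaks down methylarginines, fell by 2.93 ± 0.17, and Ass1, which makes argininosuccinate and was chosen after its values were seen, by 2.63 ± 0.12.

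Glycolysis did not move as 1 block. Of 20 genes 10 rose and 7 fell, with a median of 0.24. Hk2, the inducible hexokinase, was at 0.705, 1.78, 0.33 and 0.689 CPM in WT and at 9.92, 5.21, 7.09 and 9.29 CPM in KO, and the glucose transporter Slc2a1 and the pyruvate kinase Pkm rose by 1.09 ± 0.09 and 0.84 ± 0.08. The kinase Pgk1, the mutase Pgam1 and the lactate dehydrogenase Ldha fell by 0.84, 0.85 and 0.51. Pgk1 and Pgam1 have processed copies in the genome, so their counts are uncertain. In cholesterol synthesis 4 of 19 genes rose and 8 fell, with a median of 0.01, whereas with library totals 10 rose and 5 fell, with a median of 0.41. For glycolysis that scaling gave 12 genes that rose and 5 that fell. Cyp51, the lanosterol demethylase, was at 409, 261, 251 and 363 CPM in WT and at 58.2, 43.6, 42.2 and 66.9 CPM in KO, while Sqle, the squalene epoxidase earlier in the pathway, rose by 0.57 ± 0.10. The number of cholesterol genes that rose was 2 without KO replicate 4 or WT replicate 1, 1 without WT replicate 3 and 7 without WT replicate 4.

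The letters CAAAGTCCA, a form of the site read by HNF4A, were in 0.475% of all 32851 promoters and in 4 of the 40 promoters of amino acid catabolism genes (10%), 1 of the 12 of straight proximal tubule genes (8.33%) and 1 of the 19 of macrophage genes (5.26%). They were also in 1 of the 30 of convoluted proximal tubule (3.33%) and 1 of the 24 of fatty acid oxidation genes (4.17%). None of the 23 citric acid cycle, 14 gluconeogenesis and fructose use, and 72 oxidative phosphorylation promoters held them. Some genes have several overlapping entries, as Agxt2 does, so that promoters are not independent. HNF4-type matches before the start are shown in capitals, on the strand of the gene, for 3 genes of the amino acid and straight proximal tubule lists that fell and for Gpnmb of the macrophage list, which rose. Aadat, Slc3a1 and Gpnmb were chosen for this after their values were seen.
Aadat: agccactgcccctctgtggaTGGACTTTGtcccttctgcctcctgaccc
Agxt2: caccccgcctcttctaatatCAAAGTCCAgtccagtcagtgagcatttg
Slc3a1: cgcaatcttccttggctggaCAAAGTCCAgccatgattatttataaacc
Gpnmb: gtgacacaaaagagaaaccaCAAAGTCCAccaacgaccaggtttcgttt

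The windows lie at chr8:60506032-60506080 for Aadat, chr15:10358492-10358540 for Agxt2, chr17:85028288-85028336 for Slc3a1 and chr6:49036327-49036375 for Gpnmb, all on the plus strand. In Aadat the capitals are the reverse complement of the letters searched. Aadat makes kynurenic acid, and Slc3a1 is the heavy subunit that Slc7a9 needs at the brush border. The RNAs fell by 3.05 ± 0.18 for Aadat, 2.93 ± 0.17 for Agxt2 and 1.63 ± 0.13 for Slc3a1, and that of Gpnmb rose by 5.98 ± 0.39.

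Genes of tubule injury rose almost without exception: 27 of 30 rose, none fell, and the median log2 fold change was 2.65. Spp1, which encodes osteopontin, was measured at 3148, 2251, 2409 and 2827 CPM in WT and at 15039, 14309, 17438 and 20769 CPM in KO. Clu, a secreted chaperone of injured tubules chosen after its values were seen, was at 257, 209, 170.5 and 216 CPM in WT and at 1507, 1221, 2039 and 2452 CPM in KO. Krt19 and Sox9, a keratin and a transcription factor of tubule cells in repair that were also chosen after their values were seen, rose by 3.299 ± 0.20 and 3.42 ± 0.28. Cdkn1a, which encodes the cell cycle inhibitor p21 and was likewise chosen afterwards, was at 11.8, 6.37, 6.83 and 9.91 CPM in WT and at 73.4, 54.3, 82.4 and 75.3 CPM in KO. Its level in each KO library exceeded every WT level. Not all injury markers moved: Vcam1 was at 16.2 to 23.1 CPM in WT and at 14.5 to 30.1 CPM in KO, and Itgb6 and Fosl1, named because they make up the rest of the list, were not called, at -0.17 and 0.18. With library totals in place of TMM 29 of the 30 genes rose and none fell, with a median of 3.05.

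Of 20 targets of YAP and TAZ, the factors that respond to stretch and cell contact, 16 rose and 3 fell, with a median of 1.10. Ctgf was at 111, 67.9, 105 and 109 CPM in WT and at 493, 288, 313 and 593 CPM in KO. Ankrd1, a muscle and tubule stress protein, was at 1.96, 0.961, 2.46 and 1.93 CPM in WT and at 63.8, 32.8, 37.8 and 61.1 CPM in KO. Cyr61 rose by 2.83 ± 0.31. Igfbp3, a binding protein of insulin-like growth factors, was the largest exception, falling from 356 to 388 CPM to 53.02 to 110.2 CPM.

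Cell cycle genes were mostly not called at this age. Of 30 genes 1 rose and 9 fell, with a median of -0.44, and the groups did not overlap for 3. Top2a, which untangles replicated DNA, was at 18.2, 17.7, 24.5 and 19.1 CPM in WT and at 12.1, 11.5, 10.8 and 24.3 CPM in KO, and was not called. KO replicate 4 was the highest KO library and lay within the WT range, while the other 3 lay below it. The summed level of the list was 759 CPM in KO replicate 4, 450 to 540.0 CPM in the other KO libraries and 721 to 793 CPM in WT. Without KO replicate 4, 23 of the 30 were called lower, while without KO replicate 1, 2 or 3, or without WT replicate 3, the number was 3 or 4, and with library totals in place of TMM 1 was lower and 3 were higher. KO replicate 4 was also the KO library without Y-linked reads. With Y-linked reads as a covariate 1 gene rose and 9 fell, as in the fit without it, with a median of -0.38. Ccne1, cyclin E1, was the gene that rose, by 1.09 ± 0.28.

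At PND14 most cell cycle genes were higher in KO. At that age 6428 of 17702 genes were called (36.3%), 19.1% of all tested being higher in KO, and 25 of the 30 cell cycle genes rose and none fell. Tested as an interaction, the genotype effect differed between PND28 and PND14 for 7940 of 18390 genes (43.2%), and for 21 of the 30, in each of which the change at PND28 was the lower one. Top2a had a log2 fold change of 0.67 at the earlier age and of -0.44 at PND28, with an interaction of -1.09 (adjusted p = 0.00155). Each age has its own deposited table, so age and table cannot be told apart.

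Here the list members include those of the other tissue lists and the Y-linked genes. Among 786 list members tested at both ages, 481 were called at both and 15 of these (3.12%) in opposite directions with a called interaction. Among all 16563 genes tested at both ages this held for 245 of the 5040 called at both (4.86%), so the members' share was not above that of all genes. Cd36 and Col14a1 were among the 4 of the 15 with the smallest interaction p-values. Cd36, a fatty acid receptor, was at 165, 186, 132 and 128 CPM in WT and at 40.6, 43.5, 40.3 and 36.9 CPM in KO at PND28, a fall of 1.92, and had risen by 0.28 at PND14. Col14a1, a collagen of the interstitium, fell by 1.17 and had risen by 0.52.

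Most macrophage genes rose. Of 23 tested, 20 rose and none fell, with a median of 1.81. Cd68, a lysosomal protein of macrophages, was measured at 1.59, 1.57, 1.83 and 2.22 CPM in WT and at 7.401, 9.32, 15.1 and 13.97 CPM in KO. C1qa, the complement component that tissue macrophages make, was at 11.4, 9.83, 9.56 and 10.2 CPM in WT and at 35.7, 24.6, 42.3 and 42.1 CPM in KO. The largest rise was that of Gpnmb, a protein of lipid-laden macrophages that other cells can also make, from 0.053 to 0.201 CPM to 4.98 to 11.1 CPM. All KO libraries exceeded all WT libraries for these 3 genes. Csf1r, the receptor that macrophages need to survive, did not follow: it was at 53.2, 45.5, 48.4 and 47.7 CPM in WT and at 45.2, 37.03, 49.5 and 54 CPM in KO and was not called. That exception depended on the scaling: with library totals in place of TMM all 23 genes, Csf1r among them, rose, with a median of 2.22. Adgre1, which encodes F4/80, rose by 1.11 ± 0.18.

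Lymphocyte genes were scarce: 11 of 22 passed the low-count filter, and of these 1 rose and 5 fell, against 2 and 4 with library totals. Cd3e, which all T cells carry, ranged from 0.0504 to 0.12 CPM in WT and from 0.0599 to 0.121 CPM in KO and was not tested. Cd8a, a T cell co-receptor, was at 3.68, 4.696, 3.33 and 4.82 CPM in WT and at 0.869, 1.09, 1.13 and 1.07 CPM in KO, and Lck, a T cell kinase, rose from 0.806 to 1.57 CPM to 2.97 to 3.93 CPM, so that members of the list parted. Of the neutrophil list 5 of 12 written genes were tested and 2 rose, a number that was 4 without KO replicate 1 or any 1 of WT replicates 1 to 3 and 5 of the 7 then tested without WT replicate 4. DESeq2 tested 11 and called 6 higher. Csf3r, the receptor for granulocyte colony-stimulating factor, was at 0.453, 0.412, 0.689 and 0.45 CPM in WT and at 0.899, 1.31, 2.63 and 2.28 CPM in KO, while S100a9 was not called at 0.90 ± 0.39. Ly6g, the defining surface marker, was at or under 0.173 CPM in every library.

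Of 28 tested chemokines and cytokines 22 rose and 2 fell, with a median of 1.57. Cxcl1, a neutrophil attractant, was measured at 0.252, 0.247, 0.569 and 0.265 CPM in WT and at 6.28, 4.48, 3.08 and 17.8 CPM in KO. Cxcl5, of the same family, had 2 counts in all 4 WT libraries together and was at 7.13, 7.21, 10.3 and 22.4 CPM in KO. Cxcl2, chosen after its values were seen, had 2 counts in WT and was at 0.375, 0.94, 0.572 and 6.04 CPM in KO. The pooled KO level was 819 times that of WT for Cxcl5 (95% counting interval 227 to 6770) and 131 times for Cxcl2 (36 to 1080). KO replicate 4 was the highest KO library for all 3, and without it the ratios were 596 (165 to 4930) for Cxcl5 and 46.5 (12.6 to 389) for Cxcl2. Tnf was at 0.126, 0.165, 0.0899 and 0.106 CPM in WT and at 0.524, 0.731, 0.763 and 1.42 CPM in KO, a rise of 2.78 ± 0.40. Il34, another ligand of Csf1r that tubule cells make and that was chosen after its values were seen, was at 5.09, 6.01, 6.62 and 6.86 CPM in WT and at 48.1, 37.3, 43.5 and 53.97 CPM in KO. Il1b was not called at -0.03 ± 0.25, and Cxcl9, a T cell attractant induced by interferon gamma, fell from 0.662 to 2.39 CPM to 0.117 to 0.225 CPM. Cxcl12 fell by 1.16 ± 0.14.

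All 16 genes of the NF-kB pathway rose, with a median of 1.24 and no overlap for any of them.  Tlr2, a receptor for microbial and damage signals, was at 2.44, 2.53, 2.94 and 2.702 CPM in WT and at 10.5, 8.64, 13.2 and 11.9 CPM in KO. Nfkb1 and Nfkb2, the precursors of the DNA-binding subunits, rose by 0.64 ± 0.07 and 0.91 ± 0.07, and the inhibitor Nfkbia by 0.84 ± 0.11. The letters GGAATTTCC, a form of the NF-kB site, were in 0.317% of all promoters, in 3 of the 14 promoters of these genes (21.4%) and in 3 of the 28 promoters of chemokine and cytokine genes (10.7%). They were also in 1 of the 6 promoters of MHC class II genes (16.7%), that of a gene that was not called. The 6 of the first 2 lists are shown with the match in capitals, on the strand of each gene, because all 6 genes rose.
Cxcl1: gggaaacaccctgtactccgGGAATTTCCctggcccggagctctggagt
Cxcl2: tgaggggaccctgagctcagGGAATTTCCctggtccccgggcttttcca
Cxcl10: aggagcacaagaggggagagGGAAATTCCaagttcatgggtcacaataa
Icam1: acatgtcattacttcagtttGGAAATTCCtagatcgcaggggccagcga
Nfkbia: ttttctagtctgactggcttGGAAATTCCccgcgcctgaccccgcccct
Tnfaip3: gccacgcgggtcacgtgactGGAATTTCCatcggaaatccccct

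The windows lie at chr5:90891155-90891203, chr5:90903783-90903831 and chr9:21015767-21015815 on the plus strand for Cxcl1, Cxcl2 and Icam1, and at chr5:92349019-92349067, chr12:55492648-55492696 and chr10:19015411-19015454 on the minus strand for Cxcl10, Nfkbia and Tnfaip3. In Cxcl10, Icam1 and Nfkbia the capitals are the reverse complement of the letters searched. Cxcl10 attracts T cells, Icam1 binds leukocytes and Tnfaip3 limits NF-kB signalling. These 3, chosen after their values were seen, rose by 1.55 ± 0.24, 1.47 ± 0.15 and 1.505 ± 0.10.

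Complement and acute phase genes rose in 16 of 22 cases and fell in 1, with a median of 2.35. C3, the central complement component, was measured at 19.7, 12.9, 10.9 and 14.6 CPM in WT and at 681, 359, 559 and 486 CPM in KO. Serpina3n, a protease inhibitor of the acute phase, was at 0.252, 0.11, 0.12 and 0.132 CPM in WT and at 15.2, 13.2, 19.8 and 13.4 CPM in KO. The 3 fibrinogen chains, chosen after their values were seen, rose together: Fga by 4.18 ± 0.17, Fgb by 4.66 ± 0.22 and Fgg by 5.29 ± 0.22. Fgg, for example, was at 10.6, 12.5, 9.02 and 8.82 CPM in WT and at 339.7, 359.8, 581 and 324 CPM in KO. Alb, which encodes the main plasma protein of the liver, was at 4.61, 4.201, 5.004 and 6.78 CPM in WT and at 0.539, 0.552, 0.468 and 0.409 CPM in KO. Cfb, factor B of the alternative complement pathway, fell from 14.8 to 19.1 CPM to 5.41 to 6.25 CPM.

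The interferon response was mixed. Of 18 genes 10 rose and 4 fell, with a median of 0.41, and without WT replicate 3 the number that rose was 6. With library totals 12 rose and 2 fell. Mx1, an antiviral GTPase, was at 0.353, 0.577, 0.3 and 0.371 CPM in WT and at 0.36, 0.94, 1.65 and 0.994 CPM in KO, and Ifit1 was not called. Rsad2, which encodes viperin, was at 69.7, 61.4, 62.2 and 70.7 CPM in WT and at 18.1, 20.4, 19.3 and 17.9 CPM in KO, a fall of 1.803 ± 0.08. Of the 8 genes of MHC class II, which professional antigen-presenting cells carry, Cd74 alone was called, at 0.40 ± 0.15 (adjusted p = 0.0334), while without KO replicate 2 the number called higher was 4 and with library totals it was 5, with a median of 0.50 against 0.10. Their summed level was 136 CPM in KO replicate 2, the lowest of the 8 libraries.

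Of the 104 matrix and fibrosis genes tested 69 rose, 13 fell and 22 were not called. Of 17 interstitial collagens 10 rose and 2 fell, with a median of 0.92. Col1a1, the main fibrillar collagen of scars, was measured at 40.1, 36.7, 35.9 and 47.8 CPM in WT and at 139, 92.3, 152 and 204 CPM in KO. Col3a1 was at 137, 133, 149.9 and 178 CPM in WT and at 286, 209.9, 330.0 and 468 CPM in KO. Col11a1, a minor fibrillar collagen, rose from 0.275 to 0.636 CPM to 13.1 to 18.3 CPM. KO replicate 4 was the highest library for both Col1a1 and Col3a1 and KO replicate 2 the lowest of the KO libraries. Col27a1 fell by 1.84 ± 0.18, and Col6a1 was not called at 0.28 ± 0.14.

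Of 28 matrix glycoproteins and crosslinking enzymes 21 rose and 3 fell, with a median of 1.14. Fn1, fibronectin, was at 70.5, 39.3, 52.9 and 61.4 CPM in WT and at 309.8, 160.0, 244 and 292 CPM in KO. Lox, which crosslinks collagen, was at 15.4, 11.6, 12.5 and 15.3 CPM in WT and at 104, 95.3, 111 and 118 CPM in KO. Ltbp2, a microfibril protein, was at 0.252, 0.439, 0.15 and 0.212 CPM in WT and at 52.1, 20.2, 28.7 and 29.2 CPM in KO, the largest change of the list at 6.93 ± 0.38. Groups did not overlap for any of the 3. Tnc and Postn, matricellular proteins, rose by 3.19 ± 0.22 and 2.004 ± 0.29. Fbln5, which helps to assemble elastic fibres, and the crosslinking enzyme Tgm2 fell by 1.32 ± 0.09 and 0.72 ± 0.13.

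In the basement membrane 16 of 24 genes rose and 3 fell, with a median of 0.61, and with library totals 19 rose and none fell. Lamb3, a laminin chain of epithelia that was chosen after its values were seen, was at 2.47, 2.25, 2.098 and 2.41 CPM in WT and at 15.8, 13.2, 18.4 and 16.3 CPM in KO, a rise of 2.79 ± 0.13 (adjusted p = 4.13e-08). Lama5 and Lamb1 rose by 1.39 ± 0.08 and 1.32 ± 0.09, and Col4a1, the common collagen IV chain, by 0.61 ± 0.14. Lama3, another laminin chain of epithelia, fell, from 20.8 to 27.95 CPM to 13.2 to 19.9 CPM. Col4a3, of the collagen IV of mature glomeruli, fell by 0.53 ± 0.12 with overlap of the groups.

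Of 14 matrix proteases and inhibitors 9 rose and 3 fell, and with library totals 10 rose and 1 fell. Timp1, an inhibitor of metalloproteinases, was at 0.176, 0.467, 0.36 and 0.768 CPM in WT and at 13.7, 9.205, 14.3 and 23.9 CPM in KO. It rose by more than any other gene of the list, by 5.103 ± 0.39. Mmp14 and Mmp2, a membrane collagenase and the gelatinase it activates, rose by 2.41 ± 0.11 and 1.78 ± 0.19, while the collagenase Mmp13 fell from 3.43 to 5.41 CPM to 0.364 to 0.565 CPM. The AP-1 letters TGAGTCA, held by 5.2% of all promoters, were in 4 of the 11 promoters of this list (36.4%), in 5 of the 32 of injury genes (15.6%) and in 7 of the 28 of chemokine and cytokine genes (25%). They were also in 3 of the 19 of macrophage (15.8%), 1 of the 6 of MHC class II (16.7%) and 2 of the 14 of cholesterol synthesis genes (14.3%). None of the 20 basement membrane, 19 matrix glycoprotein and 15 fibroblast and TGF-beta promoters held them. Among the called genes that held them in the protease and injury lists, Mmp13 fell and the other 6 rose: Mmp3, Anxa2, Lif, Plaur, Prom1 and Mmp7, an injury list protease. The windows of Mmp7 and Mmp13 are shown because they moved in opposite directions, and the other 5 are named because they complete the count.
Mmp7: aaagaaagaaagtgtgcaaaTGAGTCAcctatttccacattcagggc
Mmp13: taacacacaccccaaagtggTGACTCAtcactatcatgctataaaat

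The windows lie at chr9:7692007-7692053 for Mmp7 and chr9:7272459-7272505 for Mmp13, both on the plus strand, and in Mmp13 the capitals are the reverse complement. Mmp7 was at 3 counts or fewer in each WT library and at 38.2 to 66.3 CPM in KO.

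Among the signals and cells of fibrosis 13 of 21 genes rose and 2 fell, with a median of 0.66. Tgfb2, a ligand of the TGF-beta family, was at 6.22, 4.64, 5.45 and 5.64 CPM in WT and at 56.2, 37.4, 53.6 and 58.6 CPM in KO, whereas Tgfb1, the form most often tied to scarring, was at 10.3, 9.61, 12.6 and 11.5 CPM in WT and at 17.1, 13.9, 17.8 and 20.8 CPM in KO. The rise was 3.23 ± 0.15 for Tgfb2 and 0.66 ± 0.13 for Tgfb1. Inhba, the activin A subunit, rose by 4.15 ± 0.33. Pdgfb, a mitogen of pericytes and fibroblasts, rose by 1.46 ± 0.10, and Pdgfra, a receptor that marks interstitial fibroblasts, was not called at 0.06 ± 0.10. Meox1 fell from 10.7 to 16.6 CPM to 3.62 to 5.14 CPM.

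**Figure D5:**
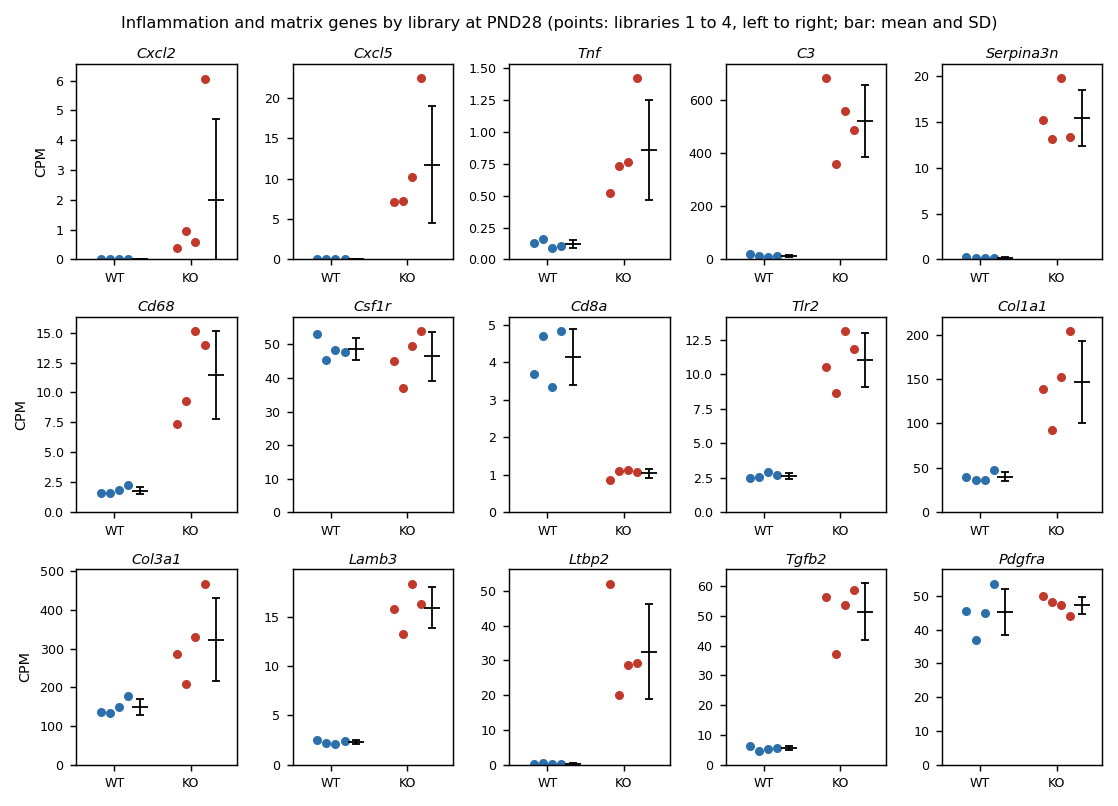
Level in CPM of 15 genes of inflammation and matrix in the 4 WT (blue) and 4 KO (red) libraries at PND28, each on its own linear axis from 0, with the mean and SD in black and SD bars cut at 0. C3, Serpina3n, Cd68, Tlr2, Lamb3 and Tgfb2 are high in all KO libraries, Cd8a is low, and Csf1r and Pdgfra overlap.

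Genes of neighbouring tissues were measured in the same way. All 10 genes of the urothelium, the lining of renal pelvis and bladder, rose, and their sum was 21.9 to 36.2 CPM in WT and 134 to 157 CPM in KO. Krt5, of its basal cells, was at 0.599 to 2.17 CPM in WT and at 4.07 to 8.63 CPM in KO. This sum moves with the injury and collecting duct lists, and its part in their rise was not tested. All 5 erythroid genes, the globins and the heme synthesis gene Alas2, fell. Their sum was 291 to 609 CPM in WT and 30.5 to 80.3 CPM in KO, although near-identical copies make the count of each globin gene uncertain. The fat genes Adipoq and Ucp1 varied between single libraries, with Adipoq at 2.24, 10.02, 0 and 6.46 CPM in WT and 0.33, 0.0298, 0 and 2.14 CPM in KO. The pancreas list summed to 138 to 170 CPM in WT and 18.5 to 27.9 CPM in KO. Nearly all of this was the elastase gene Cela1, chosen after its values were seen, which fell from 138 to 169.9 CPM to 18.4 to 27.8 CPM, while Cpa1 and Pnlip were at or under 0.0504 CPM in all libraries. Of the muscle list Ckm was at or under 0.0599 CPM.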

How the data were processed

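Whole-kidney total RNA of Glis3 KO and WT mice was sequenced, and the authors deposited 1 table of raw gene-level counts per age, with 41442 rows each. Per the submitters' processing notes the tools were STAR 2.5 and featureCounts of Subread 1.5.0-p1 with mm10. Strand and multimapping settings are not given in the sources used here. The members and gene lists were chosen with earlier results of these data known.

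The 4 KO and 4 WT counts at PND28 were filtered with filterByExpr, scaled by TMM and compared with the quasi-likelihood test of edgeR 4.0.16 (R 4.3.3), with Benjamini-Hochberg adjustment over 16797 genes and no covariate. The script was tested on simulated data in which few genes changed, as many up as down. In the real data 65.7% of genes were called, so that test could not check the scaling. The genotype effect was compared between PND28 and PND14 as an interaction in 1 fit. Alternatives were DESeq2 1.42.0, limma 3.58.1 with voom weights, other scalings and filters, a Y-linked covariate, a replicate block and each library left out. Scaling by library totals was added after seeing the data. Replicates of 1 group differed by more than counting noise, with chi-square per degree of freedom of 7.29 to 44.3 between pairs, and none were merged. Genes named are the first 4 of each list as written, the called member of each list with the largest change at 1 CPM or more, up to 2 called members that go against most of the list, and up to 4 with opposite changes at the 2 ages. Some genes so picked are not reported here. Others are said to be chosen after their values were seen. For 2 genes with few WT counts the ratio of pooled KO to WT levels is given with an exact binomial (Clopper-Pearson) 95% interval, which covers counting error only and not the spread between libraries. 1 of the 24 samples had no count column and was not analysed here.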

Additional observations from a re-analysis of the deposited data

Results flagged for a closer look

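In groups of 4 libraries, 1 library stood apart from the other 3 in 6 of 88 groups of summed list levels and in 13 of 122 groups of single genes, where chance alone gives about 1 in 20. WT replicate 4 was far above the other WT libraries for the adrenal cortex list at 334 CPM, for Hsd3b1 at 101 CPM and for Star at 83.3 CPM. KO replicate 2 was the lowest KO library for the summed basement membrane genes at 4531 CPM and MHC class II genes at 136 CPM, and the highest for the tubule transcription factors at 1546 CPM. KO replicate 4 was the highest KO library for the erythroid sum at 80.3 CPM, for Top2a at 24.3 CPM and for Adipoq at 2.14 CPM. KO replicate 3 was low for Miox at 26.3 CPM and high for Fgg at 581 CPM, and KO replicate 1 was high for Glis2 at 121 CPM. In WT, replicate 2 was low for Ctgf at 67.9 CPM and Ren1 at 51.6 CPM and stood apart for the citric acid cycle sum at 11274 CPM. WT replicate 1 was high for Slc22a7 at 54.0 CPM and Serpina3n at 0.252 CPM, and WT replicate 3 for Csf3r at 0.689 CPM and Cxcl1 at 0.569 CPM.

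The genotype effect differed between PND28 and PND14 for 7940 genes by the interaction test. Among list members called in opposite directions at the 2 ages, the difference of log2 fold changes, PND28 minus PND14, was -2.18 for Cd36 and -1.67 for Col14a1.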

How the results depend on the processing

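The number of genes called ranged from 9076 at an adjusted p under 0.01 to 12296 with library totals, and from 10462 to 11031 with 1 library left out. The replicate numbers did not pair the libraries: correlations of same-numbered deviations were 0.0462, 0.0927, 0.0608 and 0.196, and a fit with the number as a replicate block called 10987 genes, against 11044, and 7932 for the interaction. With library totals, 9516 genes were called higher and 2780 lower, 28 cyst and transcription factor genes were higher and 9 lower against 16 and 15, 27 metabolism genes were higher against 16, and 6 fibrosis genes were lower against 13, a difference made by the scaling alone. Lower injury and proliferation genes, 12 in the main test, numbered 3 with library totals, 20 with voom weights, 6 at an adjusted p under 0.01 and 6 to 26 with 1 library left out, the highest without KO replicate 4, and the cause was not tested. Lower inflammation genes numbered 7, against 12, with an average of at least 1 CPM, where fewer genes were tested. Of 177 named genes, 129 kept direction and call in every alternative. Library totals turned the sign of Cs (0.063), Cdh5 (0.17), Itgb6 (0.24), Pecam1 (0.20), Pkd1 (0.29), Pkhd1 (0.20), Trpm6 (0.20), Csf1r (0.33) and Il1b (0.37), of which only Cs had been called. Upper-quartile factors turned Csf1r (0.001) and Il1b (0.04), and the Y-linked covariate Il1b (0.063). With 1 library left out, log2 fold changes ran from -0.13 to 0.053 for Csf1r, -0.268 to 0.11 for Il1b and -0.028 to 0.146 for Pdgfra. Genes with a few counts per library, such as Cd3e and Ly6g, were below what this depth can compare.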
